A study of Mus musculus with 3 samples.

Results

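The single-base substitutions that lie in 5′ untranslated regions (5′ UTRs) were examined in 3 haploid mouse embryonic stem cell (ESC) lines. They were the sites that the deposited variant table annotates as a 5′ UTR change or as a start gain, meaning a change that creates a start-like codon in a 5′ UTR, with 1 reference and 1 alternate base, counted once per position and outside the Olfr and Vmn receptor genes. There were 833 of them, in 336 genes, among 11544 single-base substitutions of the table, and 88 were annotated as start gains. The lines were O48 (WT, passage 40), ΔDSM-O48-1 (Dmpk, Six5 and Mbnl1 mutated, passage 60) and ΔDSMD-O48-2 (Dmwd mutated in addition, passage 70). All 3 carry the strain label C57BL/6, are androgenetic, so that their genome comes from a sperm, were grown in 2i/Lif medium, and lack the H19 and IG differentially methylated regions that were deleted when O48 was made. Each mutant line was expanded from a single cell and ΔDSMD-O48-2 descends from ΔDSM-O48-1. Genomic DNA of each line was sequenced as 1 library, without replicates, so the tests below compare libraries or lists of sites and not conditions, and intervals cover counting error only. The median number of reads at a site of the whole table was 32 in O48 and ΔDSMD-O48-2 and 33 in ΔDSM-O48-1, and at the 5′ UTR sites it was 26, 27 and 26.

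A 5′ UTR is the stretch of a messenger RNA between its cap and the start codon. The small ribosomal subunit scans it from the cap, and an AUG on the way, or less often a near-cognate codon such as CUG or UUG, can be used as a start. An upstream start opens an upstream reading frame that can lower translation of the main protein, or, in frame and without a stop, lengthens that protein at its N terminus. In a haploid genome a site present in 1 copy carries a single base, so that the reads of a clonal line show either the reference or the alternate base.

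Of the start gains that create an ATG, the DNA form of AUG, 3 were carried by all reads of all 3 lines. They are shown because, among the 83 of 88 start gains that could be placed in a transcript, no others created an ATG without reference reads. Each window of 21 bases is given 5′ to 3′ on the transcript's strand, first as in GRCm38.p6 with the substituted base in capitals and then as in the lines with the new codon in capitals. The Pex16 window lies at chr2:92375433-92375453 on the plus strand, the Ube2u window at chr4:100478963-100478983 on the plus strand and the Tmsb15b1 window at chrX:136976790-136976810 on the minus strand.
Pex16, reference: cctcctgggCtgcggaagttg
Pex16, lines: cctcctgggATGcggaagttg
Ube2u, reference: taggggtggaAgctgagacag
Ube2u, lines: taggggtggATGctgagacag
Tmsb15b1, reference: gaggtaactGtggacataact
Tmsb15b1, lines: gaggtaactATGgacataact

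The sites were sorted by the share of reads with the alternate base. A site was called fixed when this share was 0.8 or more in all 3 lines, mixed when every line had a non-reference genotype and a share below 0.8, and varying otherwise. Sites with fewer than 10 reads or no genotype in any line were set aside as low depth. By these limits 264 sites were fixed, in 163 genes, 208 were mixed, in 64 genes, 251 were varying, in 101 genes, and 110 had low depth, in 48 genes. The start gains fell into 42 fixed, 31 mixed and 15 varying sites, and none had low depth. Only 2 genes, Sfi1 and Heatr7b1, held both fixed and mixed sites.

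**Figure D1:**
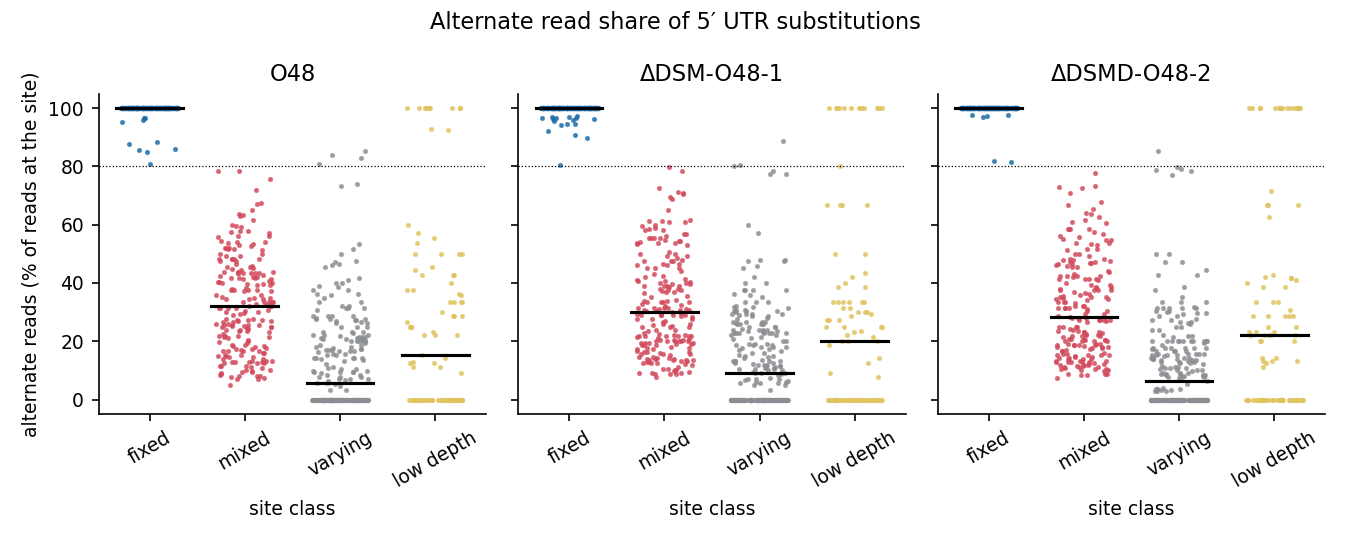
Share of reads with the alternate base (%) at each 5′ UTR substitution, by line and site class. Each point is a site, the bar is the median and the dotted line marks 80%. Fixed sites crowd at 100% in every line, mixed sites spread below 80%, and varying sites have medians between 5.56% and 9.26%.

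Fixed sites had almost no reference reads. The alternate base was seen in every read at 254 of the 264 sites in O48, at 247 in ΔDSM-O48-1 and at 258 in ΔDSMD-O48-2. At the mixed sites the median share was 32.1% in O48 (quartiles 18.6% and 43.9%), 29.9% in ΔDSM-O48-1 and 28.2% in ΔDSMD-O48-2. The limit of 0.8 fell in a thinly filled range. Just inside it lay a site of Heatr7b1 at chr1:88227221, with 80.9% of 188 reads in O48, 80.3% of 178 in ΔDSM-O48-1 and 81.6% of 217 in ΔDSMD-O48-2. Just outside it lay a site of Sp110 at chr1:85598797, with 83.8% of 266 reads, 80.3% of 249 and 79.2% of 216 in the same order. Counted line by line, at sites with at least 10 reads and a non-reference genotype, the fixed share was 44.4% in O48 (exact Clopper-Pearson 95% interval 40.4% to 48.4%, n = 611 sites), 42.7% in ΔDSM-O48-1 (38.8% to 46.6%, n = 633) and 43.9% in ΔDSMD-O48-2 (39.9% to 47.9%, n = 611). The 3 intervals overlapped. They rest largely on the same sites, since the 264 fixed in all 3 lines were among 271, 270 and 268 fixed per line. The overlap therefore does not test a difference between lines.

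The fixed sites lay in few stretches of the genome. Fixed sites less than 10 Mb apart were joined, and 9 stretches with at least 4 fixed sites, 93.9 Mb in all, held 239 of the 264 (90.5%). The same stretches held 11 of the 208 mixed sites (5.29%). The stretches were drawn from the fixed sites themselves, so a high share of fixed sites inside them follows from the rule. The contrast with mixed sites was not tested. The largest group was on chromosome 11 from 36.9 to 56.0 Mb, with 73 fixed sites in 42 genes. It includes 9 sites in Cdc42se2, which encodes a small effector of the GTPase Cdc42, 6 in Cyfip2, a subunit of the WAVE actin-regulating complex, and 5 in Uqcrq, a subunit of respiratory complex III. In each of these genes every read at every site carried the alternate base in all 3 lines. At the 5 Uqcrq sites there were 25 or 26 reads in O48, 20 to 22 in ΔDSM-O48-1 and 21 to 29 in ΔDSMD-O48-2. Chromosome 3 held 46 fixed sites in 32 genes between 76.1 and 95.4 Mb, chromosome 2 held 32 in 17 genes between 76.4 and 92.4 Mb, chromosome 4 held 28 in 15 genes between 82.5 and 105.1 Mb, and chromosome X held 18 in 9 genes between 135.6 and 137.0 Mb. Stretches on chromosomes 18, 9 and 14 and a further one on chromosome 4 held 18, 15, 4 and 5 fixed sites.

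**Figure D2:**
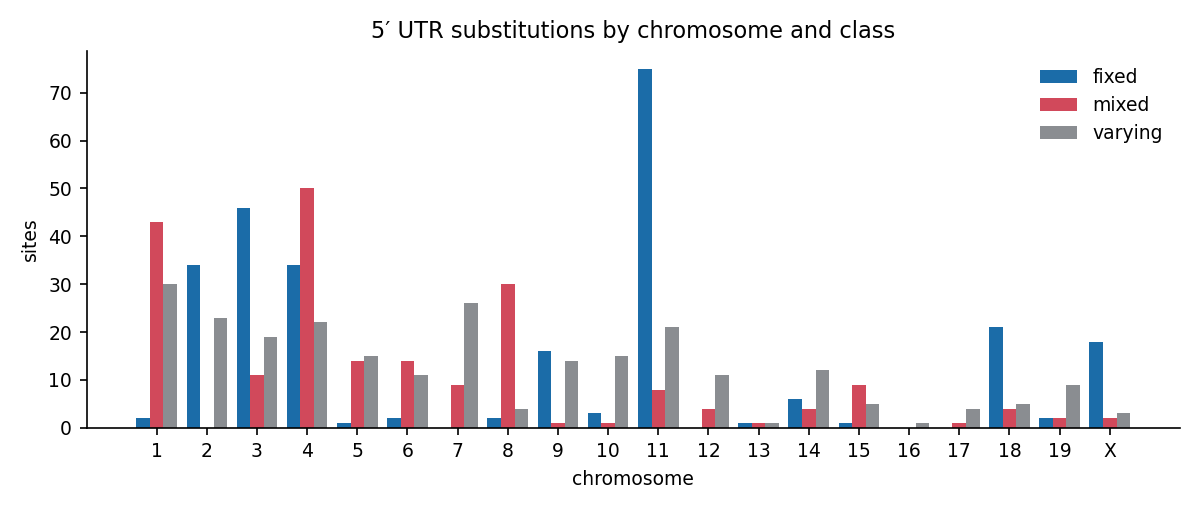
Number of fixed, mixed and varying 5′ UTR substitutions on each chromosome, with sites on the y axis. Fixed sites peak on chromosome 11 (75) and chromosome 3 (46), and mixed sites on chromosome 4 (50), chromosome 1 (43) and chromosome 8 (30).

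Mixed sites were packed into a few gene clusters and single genes. When positions were binned by 1 Mb, the 5 fullest bins held 118 of the 208 mixed sites (56.7%). The fullest bin, on chromosome 4 between 147021992 and 147809787, held 36 of them in Gm13139 (now Zfp991), Gm13154 (Zfp985), Gm13157 (Zfp984) and 3 other genes of a zinc finger gene cluster, a family of DNA-binding proteins with many near-identical copies. The next, on chromosome 1 between 85109418 and 85601066, held 35 in Sp110 and Sp140, which encode nuclear body proteins, and in the neighbouring gene models A530032D15Rik, C130026I21Rik and Gm7609. Thap1, a transcription factor with a THAP zinc finger, had 23 mixed sites and 1 varying site within 166 bp. The median share over its 24 sites was 45.1%, 40.4% and 46.4% in O48, ΔDSM-O48-1 and ΔDSMD-O48-2, at median depths of 26, 37 and 29 reads. Abcg2, a drug efflux transporter, had 14 mixed and 7 varying sites. Its median depth was 73 to 74 reads in the 3 lines. Reads of near-identical copies can be placed at each other's sites, and the copy number of these genes was not measured here.

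Mixed sites were deeper than fixed ones. A mean depth over 1.5 times the library median was found at 127 of 208 mixed sites (61.1%, exact Clopper-Pearson 95% interval 54.1% to 67.7%) and at 5 of 264 fixed sites (1.89%, 0.618% to 4.36%), a difference of -59.2 percentage points for fixed against mixed (two-sided Fisher's exact test, Benjamini-Hochberg adjusted over the 4 comparisons of fixed with mixed sites, p = 4.6e-51). The 5 deep fixed sites were in Sfi1, LOC100504180 (3 sites) and Heatr7b1. The Sfi1 site at chr11:3189023 had 1048 alternate reads of 1086 in O48, 950 of 988 in ΔDSM-O48-1 and 977 of 1008 in ΔDSMD-O48-2. Sfi1 encodes a centrosomal protein. A mixed site in the same gene, at chr11:3193409, had 174 of 1087, 152 of 1115 and 130 of 986 reads, a similar depth with a share between 13.2% and 16.01%. Median depth was 27 reads in each line at the fixed sites, and 62, 71.5 and 59.5 reads at the mixed sites of O48, ΔDSM-O48-1 and ΔDSMD-O48-2. At the varying sites it was 22, 22 and 20 reads in the same order. A mixed site needs a non-reference genotype in all 3 lines, so the class rule itself can favour deep sites. Its part in the depth difference was not tested.

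**Figure D3:**
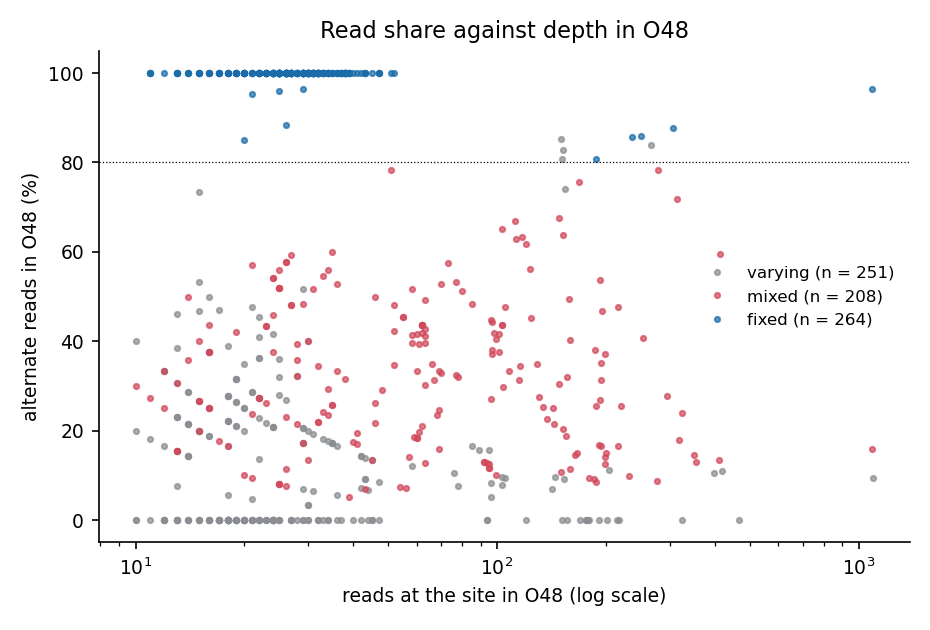
Share of alternate reads (%) in O48 against the number of reads at the site in O48 (log scale), with 1 point per fixed, mixed or varying 5′ UTR substitution and a dotted line at 80%. Most fixed sites lie at 100% between 11 and about 50 reads, with a median of 27, and mixed sites extend to 1087 reads with a median of 62.

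Mixed sites also had close neighbours. Another substitution of the table lay within 100 bp of 185 of 208 mixed sites (88.9%) and of 112 of 264 fixed sites (42.4%), a difference of -46.5 points (same exact test, adjusted p = 9.4e-27). Both the depth and the neighbour differences kept their direction and passed the test when 1 site per gene and class was kept. The 23 mixed sites without a close neighbour included sites in Dph2, an enzyme of diphthamide synthesis, and Hr, a corepressor needed for hair growth.

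Base changes differed less clearly. Transitions, which exchange a purine for a purine or a pyrimidine for a pyrimidine, made up 165 of 264 fixed sites (62.5%, 56.4% to 68.4%) and 108 of 208 mixed sites (51.9%, 44.9% to 58.9%), a difference of 10.6 points (Fisher's exact test, adjusted p = 0.024). A reference base in a CpG dinucleotide, the sequence that carries DNA methylation and mutates often, was found at 65 fixed (24.6%) and 27 mixed sites (12.98%), a difference of 11.6 points (Fisher's exact test, adjusted p = 0.0021). The CpG difference was 42.7 points among start gains alone (Fisher's exact test, adjusted p = 0.00029). Among sites annotated only as 5′ UTR changes it was 5.81 points (Fisher's exact test, adjusted p = 0.14). The start-gain label itself depends on the base change. With 1 site per gene and class the adjusted p was 0.073 for transitions and 0.076 for CpG, and without sites that have a close neighbour it was 1 for both. With both strands pooled to the pyrimidine of the pair, C-to-T and T-to-C changes were 30.7% and 31.8% of the fixed sites, 27.4% and 24.5% of the mixed sites, and 13.9% and 29.9% of the varying sites. T-to-G changes were 5.68% of fixed, 14.9% of mixed and 28.7% of varying sites, and among the 110 low depth sites there were 33 of them.

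**Figure D4:**
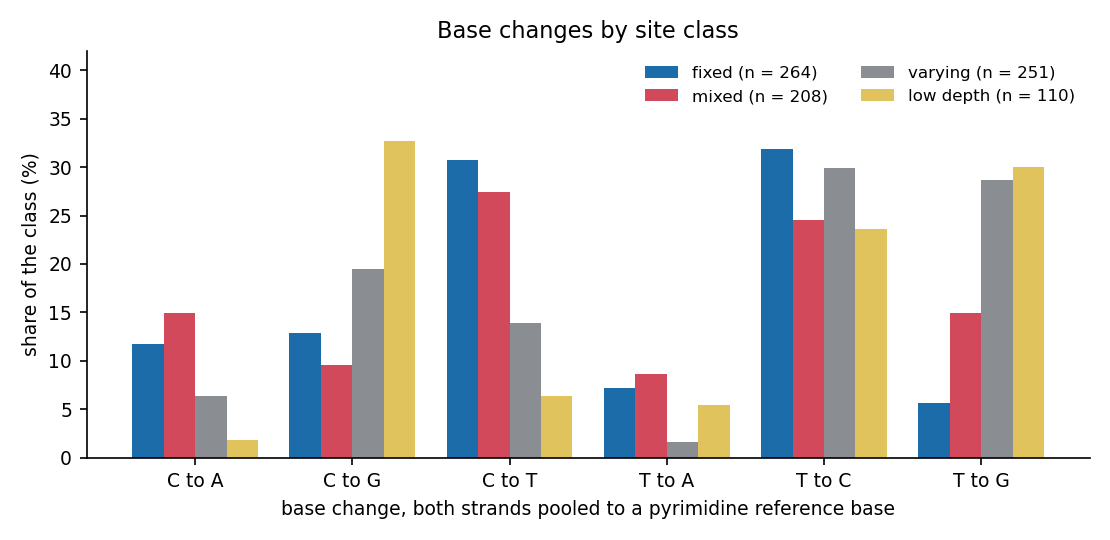
Share of each class of 5′ UTR substitutions (%) by base change, with complementary changes pooled. Fixed and mixed sites are mostly C to T and T to C, and T to G and C to G changes take a larger share of the varying and low depth sites than of the fixed ones.

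The 5′ UTR sites were compared with the other 9619 substitutions of the table outside receptor genes. The share of fixed sites among fixed and mixed ones was 264 of 472 (55.9%, 51.3% to 60.5%) in 5′ UTRs against 3500 of 6132 (57.1%, 55.8% to 58.3%) in the others. The difference of -1.15 points did not pass the test (two-sided Fisher's exact test, adjusted over 2 comparisons, p = 0.63). It turned positive, to 7.78 points with an adjusted p of 0.026, when 1 site per gene and class was kept. Among fixed sites alone, transitions were fewer in 5′ UTRs, 62.5% against 71.9% (2515 of 3500) elsewhere, a difference of -9.36 points (Fisher's exact test, adjusted p = 0.0030). Base composition moved with it, since the median GC content of the 101 bases around a fixed site was 57.9% in 5′ UTRs and 48.5% elsewhere, and its part in the difference was not tested. Fixed 5′ UTR sites lay a median of 129 bases upstream of the annotated start codon in the spliced transcript (quartiles 54 and 252.5), and mixed ones 130.5 bases (54.25 and 250.5).

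To read what the start gains create, each was placed in a RefSeq transcript of its gene, which succeeded for 83 of 88. All 83 create ATG, CTG or TTG in the spliced 5′ UTR, 14 of them ATG, 41 CTG and 28 TTG, and 22 of the 83 do so by replacing another of these 3 codons. None of the 709 placed sites annotated only as 5′ UTR changes creates any of the 3. This split follows from the meaning of the start-gain label, so it checks the placement only. Among the 40 placed fixed start gains there were 3 ATG, 23 CTG and 14 TTG, among the 28 mixed ones 7, 12 and 9, and among the 15 varying ones 4, 6 and 5. Read 1 site at a time, the new reading frame reaches a stop codon before the annotated start at 55 sites, runs into the coding sequence in another frame at 18, and extends the annotated frame at 10.

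**Figure D5:**
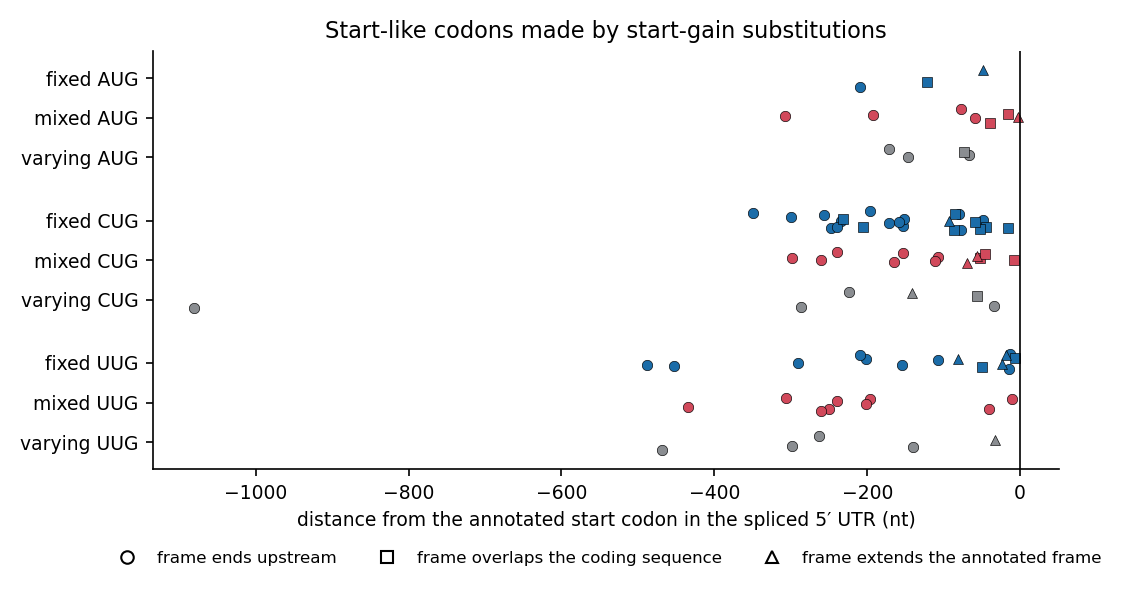
Position of each start-like codon created by a start gain, as the distance in nucleotides to the annotated start codon (vertical line at 0), by codon and site class (y axis); marker shape gives the fate of its reading frame. The 3 fixed AUG codons lie 210, 122 and 48 nucleotides upstream and differ in fate.

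The 3 fixed ATG codons shown above differed in where their frames end. In Pex16, which encodes a protein that brings membrane proteins into peroxisomes, the site at chr2:92375442 turns CTG into ATG 122 nucleotides before the start codon. Its frame of 47 codons overlaps the coding sequence, and the bases flanking it are G at -3 and C at +4 (a purine at -3 and G at +4 favour initiation). The alternate base was in 32 of 32 reads in O48, 19 of 19 in ΔDSM-O48-1 and 29 of 29 in ΔDSMD-O48-2. In Ube2u, a ubiquitin-conjugating enzyme, the site at chr4:100478973 turns AAG into ATG 210 nucleotides upstream. The frame ends after 6 codons, still within the 5′ UTR, and T at -3 and C at +4 flank it. All 33, 17 and 28 reads carried the alternate base. In Tmsb15b1, an actin-binding thymosin, the site at chrX:136976801 turns GTG into ATG 48 nucleotides upstream, in frame, so that it would add 16 codons to the annotated protein. This ATG has A at -3 and G at +4, and all 28, 29 and 30 reads carried it. The reference 5′ UTRs of Ube2u and Tmsb15b1 hold no ATG, and that of Pex16 holds 2.

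Of the 7 mixed ATG codons, 2 were in Thap1. They are shown because they lie 24 bases apart and close to the annotated start, in windows at chr8:26158402-26158422 and chr8:26158426-26158446 on the plus strand, with the created codon in capitals.
Thap1, distal: ccccttcgcATGcctcccggg
Thap1, proximal: aagggaagtATGgagggccag
The distal codon lies 40 nucleotides before the start codon and was carried by 6 of 23 reads in O48, 11 of 38 in ΔDSM-O48-1 and 6 of 28 in ΔDSMD-O48-2. The proximal one lies 16 nucleotides before it, with A at -3 and G at +4, and was carried by 8 of 19, 16 of 37 and 8 of 28 reads. Both frames run into the coding sequence, for 46 and 38 codons, and in both cases reference reads were the majority in every line. In C87414 (now Pramel34), a PRAME family gene, an ATG was made directly before the annotated one, with 31 of 63, 25 of 47 and 19 of 38 reads. Trpm8, the cold-sensing ion channel, gained an ATG with a frame of 5 codons in 78 of 158, 96 of 160 and 101 of 180 reads. The others were 2 in Gm13139, with shares between 11.5% and 48.1%, and 1 in Gm17019, with shares between 19.4% and 25.2%.

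Of the 4 varying ATG codons, those in Sp110, Dgke and Gm2022 were carried by a minority of reads in every line and that in Gm9125 by a majority. In Sp110, at chr1:85603853, 0 of 191 reads in O48, 0 of 191 in ΔDSM-O48-1 and 24 of 198 in ΔDSMD-O48-2 carried the new codon. In Dgke, a diacylglycerol kinase, the counts were 1 of 21, 7 of 29 and 4 of 26. In Gm2022 they were 0 of 45, 0 of 35 and 4 of 29. In Gm9125 (now Tdpoz9) they were 11 of 15, 12 of 15 and 11 of 14, close to the limit of 0.8 in every line.

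Fixed CTG and TTG codons were found in genes of many functions. Read 1 at a time, those in frame with no stop before the annotated start were in Arfip1, which binds the GTPase ARF (31 codons upstream), Cd5l, a macrophage-secreted protein (6 codons), Cdc42se2 (8 codons), Gm13718 (27 codons) and, with ATG, Tmsb15b1. Those whose frame overlaps the coding sequence included Hnrnph1, a splicing factor, 50 nucleotides upstream, and Mapk8ip1, a scaffold of JNK signalling, 16 nucleotides upstream. The frame ends upstream in Gria2, an AMPA receptor subunit, in Pttg1, the securin that restrains separase, and in Bmp8a, a secreted growth factor. Each start gain is annotated by itself, although a fixed site shares its chromosome with all other fixed sites nearby. When all fixed substitutions of the table were put into the transcript together, the created codon differed at 2 of the 40 fixed start gains, both in Rbm45, an RNA-binding protein, and the frame length differed at 1 more, in Arfip1. Rbm45 has 3 adjacent fixed substitutions, so that 2 separately annotated CTG codons are read as TTT and TTG. The windows are chr2:76370034-76370054 for the first and chr2:76370035-76370055 for the second, on the plus strand, with the codon in question in capitals.
Rbm45, first site alone: ggggagctgCTGggaagcggc
Rbm45, first site with its neighbours: ggggagctgTTTggaagcggc
Rbm45, second site alone: gggagctgcCTGgaagcggcc
Rbm45, second site with its neighbours: gggagctgtTTGgaagcggcc
At the first of these start gains the alternate base was in all 30 reads in O48, all 36 in ΔDSM-O48-1 and all 20 in ΔDSMD-O48-2. At the second it was in all 31, 36 and 21 reads in the same order. The alternate share was 100% in every line at all 4 fixed sites of Rbm45. In Arfip1 the frame of 404 codons, read with this site alone, shortens to 13 codons when the other fixed substitutions are included, so that it ends before the annotated start, 31 codons downstream, and no longer extends the protein.

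Some sites removed an upstream ATG. This was found at 11 of the 792 placed sites, 4 fixed, 4 mixed and 3 varying. The fixed ones were in Mat2b, a regulatory subunit of methionine adenosyltransferase, Creb3l4, a transcription factor of the endoplasmic reticulum, Tctex1d1, a dynein light chain family gene, and Fstl5, a follistatin-like secreted protein. The frames lost have 20, 11, 2 and 13 codons and all end within the 5′ UTR. Fstl5 is listed as a start gain, because its upstream ATG 300 nucleotides before the start codon becomes CTG. This is shown by its window at chr3:76074682-76074702 on the plus strand, with the codon in capitals.
Fstl5, reference: tggaaccctATGtgcccagtg
Fstl5, lines: tggaaccctCTGtgcccagtg
All 28 reads in O48 and all 23 in each mutant line carried it. The mixed ones were in Abcg2, with 37 of 70, 40 of 74 and 35 of 74 alternate reads, and in 3 zinc finger genes, Zfp180, Gm13154 and Gm13157, with shares from 12.8% to 36.5%.

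Varying and low depth sites mostly changed to C on the plus strand of the genome. The alternate base was C at 165 of 251 varying sites (65.7%) and at 78 of 110 low depth sites (70.9%), against 62 of 208 mixed (29.8%) and 58 of 264 fixed sites (22.0%). A run of 6 or more C on the plus strand lay within 20 bp of 64 varying sites (25.5%), 36 low depth sites (32.7%), 19 mixed sites (9.13%) and 3 fixed sites (1.14%). Of these 122 sites, 119 changed to C. The share of varying sites changing to C was 54.5% (102 of 187) away from such runs. The pattern was not particular to 5′ UTRs. Among the other substitutions outside receptor genes, the alternate base was C at 55.2% of 2841 varying and 47.7% of 646 low depth sites. It was C at 26.1% of mixed and 25.4% of fixed sites there. A run of C lay near 21.3%, 22.4%, 3.76% and 0.886% of these varying, low depth, mixed and fixed sites. These counts rest on sites that often share reads, and they were not tested. The pattern is shown by windows of 30 bases on the plus strand of GRCm38.p6 in 3 genes, with each called site in capitals: Chd7, a chromatin remodeller, at chr4:8734915-8734944, Galntl1, a glycosyltransferase, at chr12:80519007-80519036, and Otx2, a homeobox transcription factor of pluripotent and head tissue, at chr14:48662803-48662832, which holds 6 of its 8 sites.
Chd7: ccccccTcccGccGccGccGccGccagtaa
Galntl1: cccccTccccaaccAccAccAccAcctctc
Otx2: cccccGccgtcccccccAccccccAGcAGc
All the capital bases are called as C. At the 6 Chd7 sites no alternate read was seen among 21 to 24 reads in O48, and 4 to 6 of 15 to 18 reads in ΔDSM-O48-1 and 3 of 15 to 17 in ΔDSMD-O48-2 were alternate. At the 5 Galntl1 sites ΔDSM-O48-1 was the line without alternate reads, among 10 to 15. At the Otx2 sites in its right part, O48 and ΔDSMD-O48-2 had none, and ΔDSM-O48-1 had 5 or 6 of 15 or 16. The line with the reference genotype thus differed from gene to gene. Runs of 6 or more G were also counted, away from runs of C. Within 20 bp of them 12 low depth sites changed to G and 4 to C. The counts were 5 and 1 at varying sites and 1 and 3 at fixed sites, and they were not tested.

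The 251 varying sites were grouped by deposited genotype. They were non-reference in ΔDSM-O48-1 alone at 65 sites, in O48 alone at 43 and in ΔDSMD-O48-2 alone at 42. They were non-reference in O48 together with ΔDSMD-O48-2, but not in the line between them in descent, at 37, in O48 and ΔDSM-O48-1 at 31, and in the mutant lines only at 27. At the remaining 6 all 3 lines were heterozygous with shares on both sides of 0.8. A reference genotype did not always mean that alternate reads were absent. No alternate read was seen at 121 of 134 reference genotypes in O48, 105 of 122 in ΔDSM-O48-1 and 114 of 139 in ΔDSMD-O48-2. The deposited genotype quality, a score on the Phred scale where 0 means that the call has no support over the next best, was 0 at 150 of the 245 sites (61.2%) with a reference genotype in at least 1 line. No 5′ UTR site was fixed in 1 line and reference in another among the 723 sites with at least 10 reads in all 3 lines, which allows a share of up to 0.415%.

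Read counts of neighbouring lines in descent were compared site by site over the whole table (two-sided Fisher's exact test, Benjamini-Hochberg over all sites with 10 reads in both lines). Between O48 and ΔDSM-O48-1 the test called 29 of 751 5′ UTR sites (3.86%), against 4.08% of all 10881 sites tested. Between ΔDSM-O48-1 and ΔDSMD-O48-2 it called 33 of 746 (4.42%), against 4.36% of 10861. The share of 5′ UTR sites called was near that of the table in both comparisons, which share the ΔDSM-O48-1 library. Alternate shares were higher in ΔDSM-O48-1 at 17 of the 29 and lower at 12, and higher in ΔDSMD-O48-2 at 19 of the 33 and lower at 14. In 25 of the 29 and 30 of the 33 calls, 1 of the 2 lines had no alternate read, and the reference genotype had a quality of 0 in 15 and 20 of the 25 and 30 calls with a reference genotype. When sites with a close neighbour were left out and the p-values adjusted again, Fisher's exact test called 2 and 0 5′ UTR sites in the first and second comparison, where 11 of 210 and 9 of 208 such sites had an unadjusted p below 0.05. The share called among all sites without a close neighbour was not counted. Whether the fall is particular to 5′ UTR sites therefore cannot be told.

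The lowest p belonged to a start gain in Sfi1 at chr11:3193443, which had 102 alternate reads of 1095 in O48, 0 of 1150 in ΔDSM-O48-1 and 96 of 989 in ΔDSMD-O48-2 (Fisher's exact test, adjusted p = 2.7e-30 and 4.5e-30 in the first and second comparison). Both other lines lay near 9%, and the reference genotype of ΔDSM-O48-1 had a quality of 0. In Sp110 at chr1:85603883, 0 of 170 reads in O48, 0 of 167 in ΔDSM-O48-1 and 38 of 173 in ΔDSMD-O48-2 were alternate (Fisher's exact test, adjusted p = 4.7e-10 in the second comparison). The 4 other Sp110 sites called in that comparison had shares of at most 12.1% in each line. In LOC100504180, 3 fixed sites were called in the second comparison. At chr10:58225038 the alternate base was in 269 of 307 reads in O48, 286 of 310 in ΔDSM-O48-1 and 300 of 300 in ΔDSMD-O48-2 (Fisher's exact test, adjusted p = 1.3e-05), a rise within the fixed range. In Nfix, a nuclear factor I transcription factor, at chr8:84773814, 15 of 29 reads in O48, 0 of 33 in ΔDSM-O48-1 and 0 of 20 in ΔDSMD-O48-2 were alternate (Fisher's exact test, adjusted p = 8.9e-05 in the first comparison), beside a run of C and with a genotype quality of 0 in both mutant lines. In Tcf3, an E-protein transcription factor, at chr10:80433641, the counts were 0 of 19, 14 of 31 and 0 of 14, also beside a run of C, with an adjusted p by Fisher's exact test of 0.013 in the first comparison and 0.044 in the second. In Thap1 at chr8:26158443 the counts were 40 of 51, 13 of 35 and 5 of 24, the only 1 of its 24 sites that was called (Fisher's exact test, adjusted p = 0.011 in the first comparison).

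The 5′ UTR substitutions were also looked up in gene lists chosen for this cell type, which were not compared with all annotated genes. None of the 4 targeted genes (Dmpk, Six5, Mbnl1 and Dmwd) and none of 51 imprinted genes had one. The list of pluripotency genes did not hold Otx2, which had 3 mixed and 5 varying sites. Of the 30 genes on that list 1 had such sites, Myc, with 3 varying sites within 8 bp at chr15:61985344-61985352. At the first of them 8 of 15 reads in O48, 0 of 11 in ΔDSM-O48-1 and 6 of 22 in ΔDSMD-O48-2 were alternate, and the site did not pass the test in either comparison. Of 20 genes known for upstream reading frames 2 had sites, Hr with 1 mixed site and Slc35a4 with 2 mixed and 1 varying site. None of these 4 sites is a start gain. Hr had 6 of 22, 2 of 10 and 3 of 16 alternate reads. Of 53 translation initiation genes only Eif4enif1, which encodes the eIF4E transporter, had sites, 2 of low depth with 3 to 7 reads in each line.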

How the data were processed

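Whole-genome sequencing of 3 ESC lines, 1 library each, was used. Per the labels and the submitters' processing notes, the authors used CASAVA 1.8.2, BWA 0.7.12, SAMtools, Picard and GATK with build mm10; the effect annotator is not given in the sources used here. The deposited read counts per site, line and base are raw and unnormalized. The deposited genotype and site quality scores (Phred) and the allele fraction, which the authors' table gives per site over genotypes, were used only to describe sites or not used. The reference base equalled GRCm38.p6 at all 833 sites.

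Shares were alternate over all reads. Classes used 0.8 and 10 reads. Sites were placed in 1 RefSeq transcript per gene (792 placed), and codons were read in the spliced 5′ UTR. Comparisons used Fisher's exact test (two-sided) with Benjamini-Hochberg adjustment (threshold 0.05), intervals were exact Clopper-Pearson at 95%, and a count of 0 was given the limit of 3 counts. At the median of 26 reads, 0 alternate reads leave shares up to 11.5% undetected.

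Named genes were those with new ATG codons, line calls, most sites, highest depth or listed genes; Rbm45, Arfip1, the genes of other fixed start gains, lost ATG codons and C runs, Uqcrq, Dph2 and Cyfip2 were chosen after their values were seen. Sites and lists were chosen with earlier results of these data known. Left out were 19 positions with several or longer alleles and 22 in Olfr or Vmn genes. Other depth minimums, limits, classes and subsets were tried. The test between lines and the sorting into classes were checked on simulated data with independent reads at each site. Comparisons of fixed with mixed sites, and reads shared between sites, were not simulated. Python 3.11.15, scipy 1.17.1, pandas 2.3.3 and pysam 0.24.0 were used.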

Additional observations from a re-analysis of the deposited data

How the results depend on the processing

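The depth difference between fixed and mixed sites kept its direction and passed the test in all 13 alternatives, and the neighbour difference in all 12 that could be run. The fixed share among fixed and mixed sites, 55.9%, became 86.9% (152 fixed, 23 mixed) without sites that have a neighbour within 100 bp, 67.3% (114 mixed) without unnamed gene models, 44.4% (340 mixed) with classes from O48 alone, and 71.8% (163 and 64) with 1 site per gene, an alternative chosen after seeing the data. Start gains alone gave 42 fixed and 31 mixed sites. The transition difference between fixed and mixed sites lost the test without close neighbours (4.005 points), without unnamed gene models (8.17), for 5′ UTR annotations only (8.04), for start gains only (24.7) and with 1 site per gene (14.9). The CpG difference lost it without close neighbours (7.61), for 5′ UTR annotations only (5.81) and with 1 site per gene (11.7). The difference in fixed share from the rest of the table, -1.15 points, turned positive with classes by genotype (0.027), without close neighbours (2.02), without unnamed gene models (0.23), for start gains only (0.46), with Olfr and Vmn genes (0.84) and with 1 site per gene (7.78, the only 1 of these past the threshold). The transition difference from the rest lost the test for start gains only (-5.19). Line calls numbered 2 and 0 without close neighbours, 17 and 21 without unnamed gene models, 9 and 12 with Bonferroni adjustment, and 4 and 5 among start gains. The share of the whole table called under each of these settings was not counted, so the counts say nothing particular about 5′ UTR sites. The share of ATG among placed start gains was 16.9%, and 7.5% among fixed ones. The cause of these changes was not tested, beyond fewer sites in each subset. No paired analysis was possible because each line has 1 library. Sites of 1 gene share reads, copies and descent, so p-values over sites are too small.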

Other observations

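The low depth sites held 11 that were homozygous for the alternate base in all 3 lines and 31 without a genotype in at least 1 line. In Smad5, a transducer of BMP signalling, 9 low depth sites lay within 28 bp in a repeat of G and C. At each of them O48 had no alternate read among 6 or 7 reads, and ΔDSM-O48-1 had 3 among 9 to 12. In Pappa, a metalloprotease that cleaves insulin-like growth factor binding proteins, 7 low depth sites within 51 bp had alternate reads in O48, with a median share of 33.3% at a median of 7 reads, and none in the mutant lines. In Astn1, a neuronal adhesion protein, a site at chr1:158362477 had 1 alternate read of 4 in O48, 0 of 2 in ΔDSM-O48-1 and 9 of 9 in ΔDSMD-O48-2.

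Another effect in another transcript was annotated at 15 of the 833 sites, a missense change at 13 and a synonymous one at 2. Genes whose file or current symbol starts with Zfp or Zkscan held 67 sites, in 16 genes, and 50 of these sites lay on chromosome 4 between 145.7 and 147.8 Mb.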
